A study of Parhyale hawaiensis with 42 samples.

Results

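miR-87 and miR-190 were followed, on both arms of their hairpins, through the embryonic development of the amphipod crustacean *Parhyale hawaiensis*. The members are all mature microRNAs whose annotated name is exactly miR-87 or miR-190. They comprise 6 of the 349 mature sequences quantified, from 3 of 175 precursors: 2 miR-87 loci, numbered 32998 and 33002 in the annotation, and 1 miR-190 locus, numbered 1665. Both microRNAs were chosen by measured values of these libraries, namely higher counts after stage 17 and a change in the dominant arm of miR-190, so levels and ratios of S21-23 and S24-30, and of S17 and S8-11 where they served as the base of that choice, are described and carry no test unless stated otherwise.

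The embryos were wild-type animals of a laboratory strain, untreated, staged by hand and pooled. Small RNA was sequenced in 28 libraries, 4 for each of 7 time-points named by their stages in the sample labels: S1-4, S6, S8-11, S14, S17, S21-23 and S24-30. In the study's text S6 is called S5–6 and S8-11 is called S7–11. The last 2 time-points each cover a window of several stages, and each library holds RNA of whole pooled embryos, so fewer cells that express a microRNA and less microRNA per cell cannot be told apart.

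A microRNA is cut from a hairpin whose 2 arms give the 5p and the 3p mature sequence. One strand of this duplex is usually loaded into an Argonaute protein and kept, while the other is mostly degraded, and the bases near the 5′ end of the loaded strand, the seed, select the messenger RNAs that are repressed. The 2 arms carry different seeds, so a change in the dominant arm changes the possible targets of the locus. In *Drosophila*, miR-87 promotes the regrowth of dendrites of sensory neurons after injury, and miR-190 increases the response to low oxygen by inhibiting the prolyl hydroxylase Fatiga.

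In the *Parhyale* annotation both miR-87 loci lie on contig LQNS02278080.1, which holds 3 precursors. The remaining one, Dpu-Mir-87-o2 of locus 33000, is numbered between them. It bears another name and is no member, and its values are given as those of the neighbour. miR-190 is the only precursor on contig LQNS02000210.1. The miR-87-3p sequences of both loci are 22 nt long and their 5p sequences 25 nt. miR-190-5p is 24 nt and miR-190-3p 23 nt long.

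The reads of miR-87-3p could not be assigned to 1 locus. Its expected count, the number of reads that the authors' software estimated for a sequence, was a whole number (within 0.01) in only 4 of 28 libraries at each locus, while the sum of both loci was whole in 28 of 28. The miR-87-5p arms, both arms of miR-190 and both arms of the neighbour had whole counts in 28 of 28 libraries. The 3p reads were thus divided between loci 33002 and 32998 alone, with 50.2 to 68.0% given to locus 33002. The sum does not depend on this division and is used for miR-87-3p below.

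The libraries held 112244 to 1846449 counts (median 474499), and the S14 libraries were the shallowest. Values are normalised counts, expected counts divided by DESeq2 size factors, unless stated otherwise. A read spans a whole mature sequence, so counts were not divided by length. Nothing states whether replicates came from separate broods, so p-values measure the spread between these libraries, which may be technical. Among the libraries, 5 are said below to stand apart from the others of their time-point, and they touch the results. This grouping was made after the data were seen. The summed normalised counts of the 10 microRNAs outside the members with the largest fold of S24-30 over S8-11, a list chosen after their values were seen, were 18.0 and 50.9 in S1-4 replicates 1 and 2, and 7.30 and 11.2 in replicates 3 and 4. They were 83.2 and 72.5 in S6 replicates 2 and 3, against 18.8 and 12.5 in replicates 1 and 4. In S21-23 replicate 1 the sum was 537, and in the other libraries of S21-23 it was 384 to 400. S14 replicate 1 held 36.2, against 9.84 to 19.8 in the other S14 libraries, and was not put among the 5.

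The clearest pattern of miR-190 was its 5p arm at the end of the time-course. miR-190-5p had 789, 1450, 1489 and 1172 normalised counts in the 4 libraries of S24-30. In S21-23 it had 498, 298, 256 and 210, and in S17 26.4, 18.1, 27.2 and 29.9. Each S24-30 library was above each S21-23 library, and each S21-23 library was above every library of the 5 earlier time-points, of which the highest reached 103.4. The mean at S24-30 was 48.2 times that at S17, and the mean at S21-23 was 12.4 times that at S17, or 10.02 times without S21-23 replicate 1. The fitted log2 fold change was 3.79 for S21-23 over S17 and 1.80 for S24-30 over S21-23. Of all expressed microRNAs 8.12% were called in the first of these steps and 9.4% in the second, by the rule given below, but miR-190 was picked for them and no call is read from them. By mean level miR-190-5p took place 33 of 349 at S24-30 and place 142 at S17. Of 234 expressed microRNAs it had the 14th highest fitted change of S24-30 over S17, 5.60 on the log2 scale.

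Before S21-23 the same arm was low, with a wide spread between the earliest libraries. At S1-4 the replicates had 103.4, 76.4, 14.6 and 22.4 normalised counts of miR-190-5p, and at S6 30.6, 73.3, 87.3 and 15.0. The 4 highest of these libraries were S1-4 replicates 1 and 2 and S6 replicates 2 and 3. These also held more of the 10 late microRNAs than the others of their own time-point. At S8-11 the counts were 5.6, 7.5, 8.7 and 13.3, from 7 to 15 reads each, below all libraries of every other time-point in normalised counts. As a share of all counts these libraries held 0.00147 to 0.00293%, within the ranges of S1-4 (0.00119 to 0.00861%) and S6 (0.000845 to 0.00781%). At S14 they were 39.98, 42.5, 28.4 and 19.6.

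Ordered by mean, miR-190-5p was lowest at S8-11 (8.79 ± 3.28 normalised counts, SD, n = 4), then came S17 (25.4 ± 5.09), S14 (32.6 ± 10.6), S6 (51.5 ± 34.3), S1-4 (54.2 ± 42.8), S21-23 (316 ± 127) and S24-30 (1225 ± 323). The ranges of S17, S14, S6 and S1-4 overlapped, so these 4 levels did not differ beyond their spread. S21-23 and S24-30 each stood clear of their neighbours in this order, in normalised counts and as a share of all counts. S8-11 stood clear in normalised counts only, and by share S6 and S1-4 came next above it, below S17 and S14. The step of S6 over S1-4 compared no later time-point. It was tested over all 234 expressed microRNAs with edgeR's quasi-likelihood test, with Benjamini-Hochberg adjustment. The fit held all 28 libraries, so the later ones entered its estimate of the spread. A microRNA was called where its log2 fold change was 1.5 or more in either direction with an adjusted p no higher than 0.001, and 1.28% of all microRNAs were called in this step. miR-190-5p was not (log2 fold change 0.13, SE 0.52, adjusted p = 0.901).

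**Figure D1:**
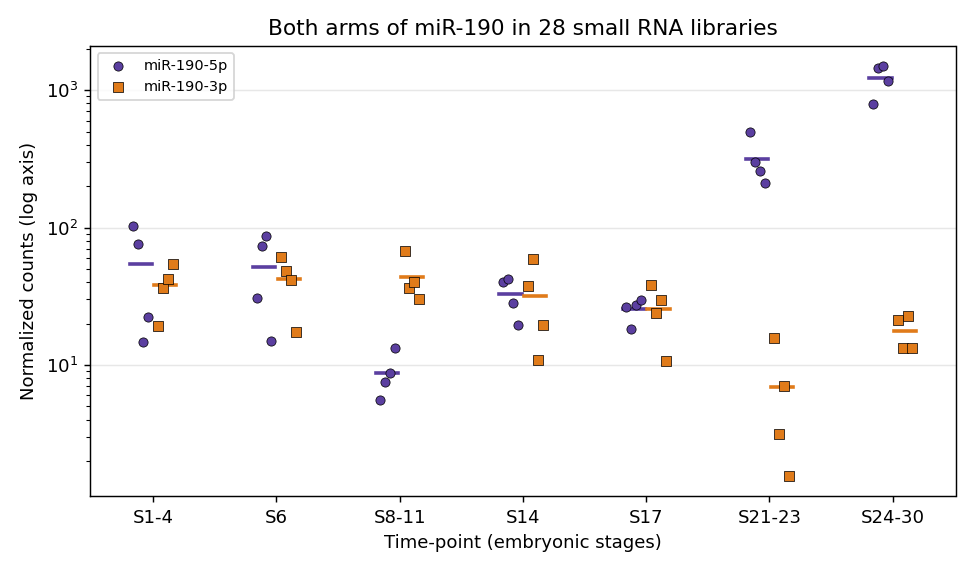
Normalised counts of both arms of miR-190 (log axis) in each of the 28 small RNA libraries by time-point. Points are libraries and bars are means of 4. The 5p arm lies between 210 and 498 at S21-23 and between 789 and 1489 at S24-30, above its values at all earlier time-points, while the 3p arm stays between 1.6 and 67.2 throughout.

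The 3p arm of miR-190 did not follow. miR-190-3p had 19.2, 36.1, 42.5 and 54.5 normalised counts at S1-4, 61.2, 48.3, 41.4 and 17.4 at S6, and 67.2, 36.5, 39.96 and 30.2 at S8-11. It had 37.5, 59.4, 10.9 and 19.6 at S14, and 38.4, 23.7, 29.5 and 10.6 at S17. All 5 ranges overlapped in normalised counts. At S21-23 the values were 15.8, 3.1, 7.0 and 1.6, from 45, 3, 11 and 3 reads, and at S24-30 21.3, 13.3, 22.7 and 13.4. As a share of all counts, S8-11 (0.00663 to 0.0177%) lay above every library of S1-4 (0.0016 to 0.00438%) and S6 (0.000986 to 0.00515%). The fitted log2 fold change of S8-11 over S6 was 0.18 in the main fit and 1.70 with libraries scaled to total counts. Relative to the median of all microRNAs these were 0.44 and 0.46.

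By mean the 3p order was S21-23 (6.89 ± 6.37 normalised counts, SD, n = 4), S24-30 (17.7 ± 5.03), S17 (25.6 ± 11.7), S14 (31.9 ± 21.4), S1-4 (38.1 ± 14.7), S6 (42.1 ± 18.4) and S8-11 (43.4 ± 16.3). No neighbours in this order differed beyond their spread, since each range overlapped the next. In normalised counts the ends did not overlap, with 15.8 in the highest S21-23 library and 30.2 in the lowest S8-11 library. As a share of all counts they did (0.000703 to 0.0088% at S21-23 and 0.00663 to 0.0177% at S8-11), and S6 and S1-4 were then the lowest by mean (0.0033% each). The fitted log2 fold change of miR-190-3p was -1.62 for S21-23 over S17 and 1.09 for S24-30 over S21-23. Both were larger without S21-23 replicate 1: the mean at S21-23 was 0.269 times that at S17 with all libraries and 0.153 times without this one, and the mean at S24-30 was 2.57 times that at S21-23 with all libraries and 4.51 times without it. In the tested step of S6 over S1-4 it was 0.26 (SE 0.61, adjusted p = 0.828, edgeR), so 0 of the 2 miR-190 arms were called. Neither had an unadjusted p under 0.05 in edgeR (0 of 2) or in DESeq2 (0 of 2).

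The ratio of the arms of miR-190 changed with these levels. Relative arm usage is given as log2(5p/3p) of the time-point means, with 0.5 added to both, and as the 5p share of all miR-190 reads of a library. In sequence over the 7 time-points the log2 ratio was 0.50, 0.29, -2.24, 0.03, -0.01, 5.42 and 6.08. The SD of the single-library ratios was 1.88, 0.91, 0.95, 0.78, 0.91, 0.88 and 0.66 (n = 4 each). The 5p arm was the higher in 2, 2, 0, 2, 1, 4 and 4 of the 4 libraries. The 3p arm was thus dominant in every library at S8-11 and the 5p arm in every library from S21-23 on, and at the other 4 time-points neither arm was dominant in all libraries.

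Seen by library, the 5p share at S1-4 was 84.3% in replicate 1 (95% Wilson interval 76.0 to 90.1) and 67.9% in replicate 2, against 25.6% and 29.1% in replicates 3 and 4. At S6 it was 60.3% and 67.8% in replicates 2 and 3, and 33.3% and 46.2% in replicates 1 and 4. The 4 early libraries in which 5p exceeded 3p were the 4 set apart after the data were seen, and in the other 4 the 3p arm was the higher. The part of the late microRNAs' presence in these early ratios was not tested. At S8-11 the 5p share was 7.69, 17.1, 17.9 and 30.6% of 41 to 91 reads. The highest of these had an interval of 19.5 to 44.5%, below an equal share.

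At S14 the share was 51.6, 41.7, 72.2 and 50% of 14 to 62 reads, and at S17 40.7, 43.3, 48.0 and 73.8% of 30 to 54 reads. The Wilson interval included an equal share in 3 of 4 libraries at each of these time-points. At S21-23 the share was 96.9, 99.0, 97.3 and 99.3%, and at S24-30 97.4, 99.1, 98.5 and 98.9%, of 287 to 5126 reads. These intervals cover counting error alone, because copies made by PCR were not marked and so reads are not independent.

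A complete change of dominance of this kind was rare among the other precursors. Of 100 precursors with both arms and a mean sum of at least 10 normalised counts at S8-11 and at S24-30, 2 had the 3p arm higher in all 4 libraries at S8-11 and the 5p arm higher in all 4 at S24-30, and 1 had the opposite change. miR-190 was 1 of the first 2, the other was a precursor without a family name on contig LQNS02002221.1, and the reverse case was Dpu-Mir-8. The log2 ratio of miR-190 was 8.32 higher at S24-30 than at S8-11, the 2nd largest shift of 100, whose median size was 1.61. Since miR-190 was picked for this change, these ranks describe the choice.

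**Figure D2:**
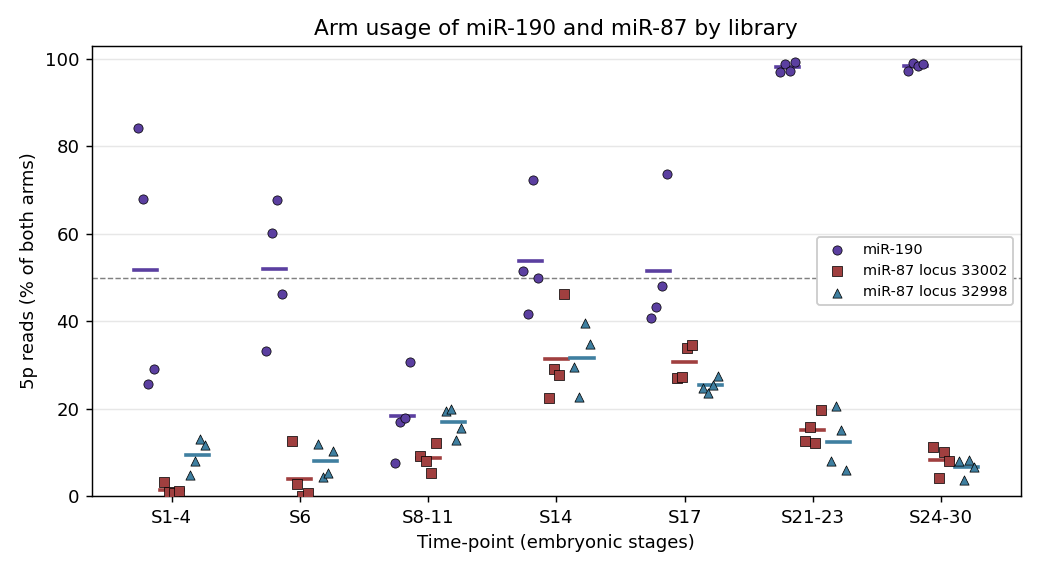
Share of 5p reads among the reads of both arms, in percent, for miR-190 and for both miR-87 loci in each library by time-point. Points are libraries, bars are means of 4 and the dashed line marks equal arms. miR-190 lies below 31% in all S8-11 libraries and above 96% in all S21-23 and S24-30 libraries, while both miR-87 loci stay below the line in every library and peak at S14 and S17.

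The 3p arm was the more abundant arm of miR-87 in all 28 libraries, unlike that of miR-190. The miR-87-3p sum was 1668, 2458, 2583 and 2076 normalised counts in the 4 libraries of S24-30, and 924, 192, 193 and 155 in those of S21-23. In S17 it was 113, 117, 132 and 117. Each S24-30 library was above every other library of the time-course. The mean at S24-30 was 18.4 times that at S17 in normalised counts and 21.3 times as a share of all counts. Over S1-4 the size of the difference depended on the scaling: S24-30 was 5.55 times S1-4 in normalised counts, and as a share of all counts miR-87-3p was 0.924% at S24-30 and 0.0353% at S1-4, 26.2 times.

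The higher mean of S21-23 rested on 1 library. With replicate 1 the mean of the miR-87-3p sum at S21-23 was 3.06 times that at S17, and without it 1.51 times. The fitted log2 fold change was 1.92 with all libraries and 0.63 without this one. The other 3 libraries (155 to 193) were still above each S17 library (113 to 132). The fold of S24-30 over S21-23 was 6.00 with all libraries and 12.2 without replicate 1. For miR-190-5p, by contrast, all 4 S21-23 libraries were at least 7.02 times the highest S17 library. In replicate 1 the miR-87-3p sum was 4.78 times the highest of the other 3 libraries, and miR-190-5p was 1.67 times the highest of the other 3.

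Early in development miR-87-3p was at a moderate level. Its sum was 361, 488, 354 and 380 normalised counts at S1-4 and 353, 333, 402 and 466 at S6. At S8-11 it was 183, 188, 205 and 218, and at S14 169, 161, 138 and 104. Ordered by mean, S17 was lowest (120 ± 8.21, SD, n = 4), followed by S14 (143 ± 29.2), S8-11 (198 ± 16.1), S21-23 (366 ± 373), S6 (389 ± 59.3), S1-4 (396 ± 62.5) and S24-30 (2196 ± 413). S17 and S14 overlapped, S14 and S8-11 did not, and S21-23 overlapped S14, S8-11, S6 and S1-4. The order of the first 5 time-points depended on the scaling: as a mean share of all counts S6 was lowest (0.0284%), followed by S1-4 (0.0353%), S17 (0.0434%), S14 (0.0456%) and S8-11 (0.0479%), and S14 and S8-11 overlapped. S24-30 was clear of all others on both scales.

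The steps up to S14 compared no time-point that led to the choice of miR-87, and they were tested. The later libraries were still part of the fit of all 28 libraries, so they entered its estimate of the spread. For S6 over S1-4 the miR-87-3p sum had a log2 fold change of 0.04 (SE 0.40, adjusted p = 0.961, edgeR). For S8-11 over S6 it was -0.85 (SE 0.40, adjusted p = 0.0788, edgeR), and all 4 S8-11 libraries lay below all 4 S6 libraries. For S14 over S8-11 it was -0.53 (SE 0.40, adjusted p = 0.327, edgeR).

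None of these steps passed the test, for the sum or for single miR-87 sequences. In each step 0 of 4 miR-87 sequences were called, beside 1.28% of all microRNAs in S6 over S1-4, 15.4% in S8-11 over S6 and 6.84% in S14 over S8-11. At an unadjusted p under 0.05 the counts were 0, 1 and 1 of 4 in edgeR and 0, 2 and 1 in DESeq2, which also called 0 in each step. In S17 over S14, which was described without a test, 0.855% of all microRNAs were called.

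The direction of the step of S8-11 over S6 depended on the scaling. With libraries scaled to their total counts alone, the log2 fold change of the miR-87-3p sum was 0.75 (adjusted p = 0.11, edgeR), with 0.67 for locus 33002 and 0.90 for locus 32998. As a share of all counts, miR-87-3p was 0.0479% at S8-11 and 0.0284% at S6 (means of 4 libraries). The median change of all 234 microRNAs in this step was -0.25 with the TMM scaling of the main fit and 1.24 with total counts. Relative to that median, the change of the miR-87-3p sum was -0.60 with TMM and -0.49 with total counts. For the later steps the direction was the same under both scalings, and the late changes were close. S21-23 over S17 had 1.92 by TMM and 2.16 by total counts, and S24-30 over S21-23 had 2.30 by TMM and 2.26 by total counts.

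miR-190-5p had the same direction under both scalings in every step but the first. Its log2 fold change for S8-11 over S6 was -2.55 under TMM scaling and -0.98 under total-count scaling. For S14 over S8-11 TMM gave 1.77 and total counts 2.31, and for S21-23 over S17 TMM gave 3.79 and total counts 4.12. In S6 over S1-4, the first step, TMM gave 0.13 and total counts -0.19.

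**Figure D3:**
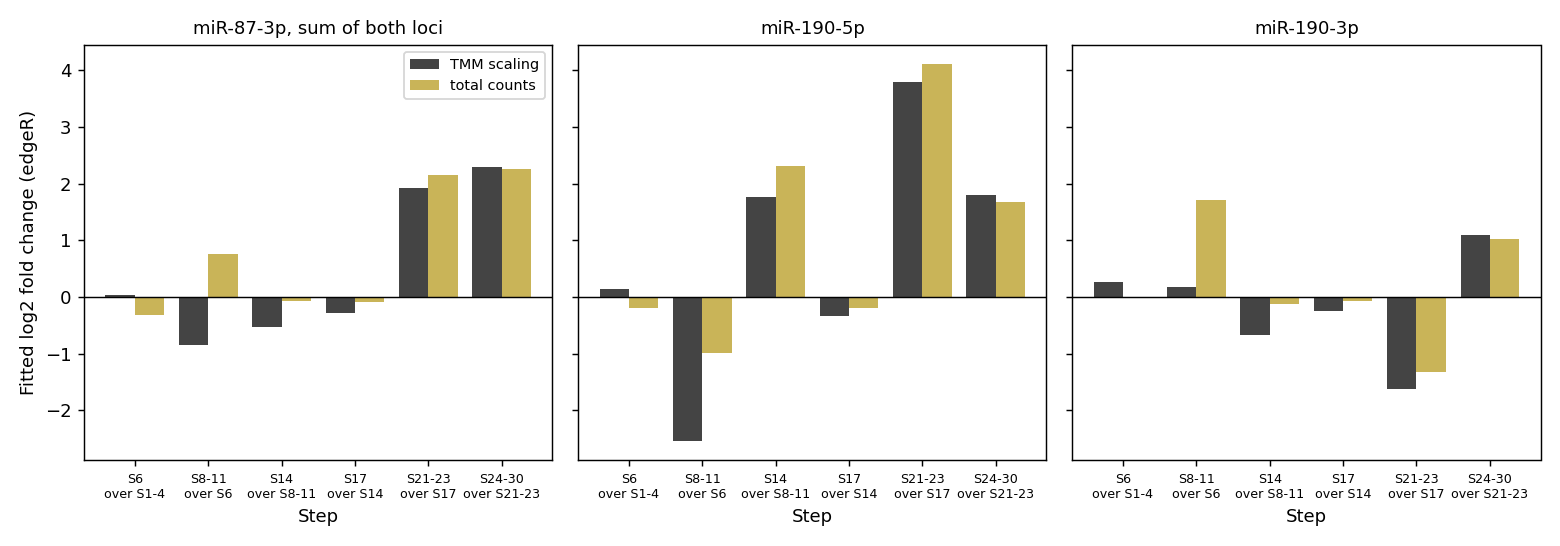
Fitted log2 fold changes (edgeR) of the miR-87-3p sum, miR-190-5p and miR-190-3p in the 6 steps between adjacent time-points, with TMM scaling and with total counts. For the miR-87-3p sum the bars of S8-11 over S6 point in opposite directions, -0.85 and 0.75, while those of the last 2 steps are of nearly equal height.

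The 5p arm of miR-87 was less abundant, highest at S24-30, and higher at S14 than at S8-11 in every library. The miR-87-5p sum was 14.4, 23.3, 19.3 and 19.6 normalised counts at S1-4, 49.4, 11.7, 7.4 and 19.9 at S6, and 27.99, 26.8, 19.4 and 34.6 at S8-11. At S14 it was 57.5, 59.4, 66.7 and 75.8, all above every S8-11 library, and at S17 39.6, 40.4, 57.8 and 55.0. At S21-23 it was 113, 40.9, 30.1 and 24.5, and at S24-30 184.6, 101.1, 267.8 and 167.0.

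Between S8-11 and S14 the 2 arms of miR-87 had changes of opposite sign, and neither passed the test. The log2 fold change of the 3p sum was -0.53 with TMM but only -0.06 with total counts. For S14 over S8-11 the log2 fold change of the 5p sum was 1.19 (SE 0.48, adjusted p = 0.056, edgeR). At locus 33002 alone it was 1.60 (SE 0.69, adjusted p = 0.0712, edgeR), with a mean of 39.6 ± 10.6 normalised counts at S14 and of 11.8 ± 4.50 at S8-11 (SD, n = 4). At locus 32998 it was 0.60 (SE 0.49, adjusted p = 0.375, edgeR). In the step of S8-11 over S6 the 5p sum had 0.48 (adjusted p = 0.427, edgeR), and in S6 over S1-4 0.21 (adjusted p = 0.841, edgeR). The sizes depended on the scaling. With total counts the 5p sum had 2.07 in S8-11 over S6, where the median of all microRNAs was 1.24, and 1.66 in S14 over S8-11.

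After S17, in the steps described without a test, the miR-87-5p sum had a log2 fold change of 0.39 for S21-23 over S17, and of -0.57 when S21-23 replicate 1 was left out. In S24-30 its mean was 3.73 times that at S17, 180 ± 68.6 against 48.2 ± 9.55 normalised counts (SD, n = 4).

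The 5p share of miR-87 reads was highest in the middle of development. Over both loci the mean share in sequence over the 7 time-points was 4.62, 5.39, 12.02, 31.8, 28.6, 13.9 and 7.69%. The SD was 0.57, 4.69, 2.31, 7.60, 3.21, 2.76 and 2.72 percentage points (n = 4). By library, S14 had 25.4, 26.9, 32.6 and 42.2% and S17 26.0, 25.7, 30.5 and 32.0%. All 8 of these lay above every library of the other 5 time-points, of which the highest was 17.6%.

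For the change in arm usage, log2(5p/3p) of each library went into an F-test in limma. Over the 4 time-points from S1-4 to S14, none of which served in the choice of miR-87, the adjusted p was 0.00387 for locus 32998, 0.00384 for locus 33002 and 0.000557 for the sum of both loci (limma). Such a change was common: 38.7% of all precursors in the fit with separate loci passed the threshold of 0.05. The fit planned for this test also held S17, the base of the rise by which miR-87 was chosen, and is not independent of that choice. Over 139 precursors, of which 49.6% passed, it gave an adjusted p of 0.000479 for locus 32998 and 0.000215 for locus 33002 (limma). With the loci summed, over 138 precursors, the adjusted p of the sum was 2.07e-05 (limma). Without the 4 early libraries that stood apart, the 5 time-points gave 0.00408 for locus 32998 and 0.000526 for locus 33002.

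The mean 5p shares of the 2 miR-87 loci were higher at locus 32998 from S1-4 to S8-11, close at S14 and higher at locus 33002 from S17 on. At S1-4 the 5p share was 1.49 ± 1.12% at locus 33002 and 9.38 ± 3.65% at locus 32998 (SD, n = 4). At S6 it was 4.05 ± 5.80% at locus 33002 and 8.03 ± 3.69% at locus 32998, with overlapping ranges. At S8-11 it was 8.73 ± 2.84% at locus 33002 and 17.0 ± 3.36% at locus 32998, and at S14 31.4 ± 10.4% at locus 33002 and 31.7 ± 7.20% at locus 32998. At S17 it was 30.7 ± 4.15% at locus 33002 and 25.3 ± 1.60% at locus 32998. At S21-23 it was 15.1 ± 3.44% at locus 33002 and 12.4 ± 6.69% at locus 32998. At S24-30 it was 8.38 ± 3.10% at locus 33002 and 6.64 ± 2.13% at locus 32998. From S14 on the ranges of the loci overlapped at every time-point, so their order there did not differ beyond the spread. The difference between the loci was not tested. The counts behind the early shares of locus 33002 were small: its 5p arm had 6, 1, 3 and 2 reads at S1-4 and 12, 4, 0 and 1 reads at S6. A count of 0 allows up to 3. The shares of single loci use the divided 3p reads, whereas the 5p counts of each locus were whole.

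miR-87-5p of locus 33002 had 117 ± 46.8 normalised counts at S24-30 and 3.53 ± 2.48 at S1-4 (SD, n = 4), a ratio of 33.2, or 51.0 without S1-4 replicate 1. For locus 32998 the 2 means were 62.7 ± 22.5 and 15.6 ± 5.94, a ratio of 4.02. At S1-4 the 5p arm was higher at locus 32998 in 3 of 4 libraries, with equal counts in replicate 1. At S24-30 it was higher at locus 33002 in 4 of 4. For the 3p arms the ratio of the same means was 5.42 at locus 33002 and 5.74 at locus 32998. As shares of all counts these 4 ratios were larger, so their size depends on the scaling. For the 5p arm they were 165 at locus 33002 and 19.0 at locus 32998, and for the 3p arm 26.0 at locus 33002 and 26.4 at locus 32998.

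**Figure D4:**
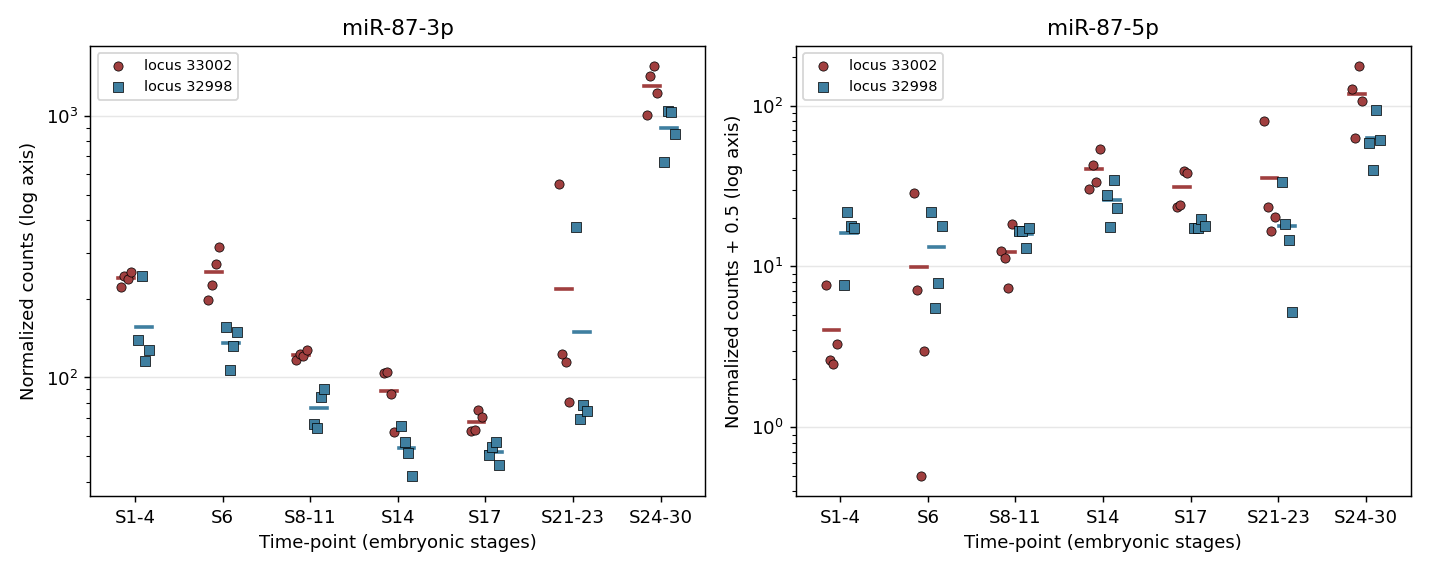
Normalised counts of miR-87-3p (left) and miR-87-5p (right, 0.5 added) at both loci in each library by time-point, on log axes. Points are libraries and bars are means of 4. On this scale the 3p counts of both loci are lowest at S14 and S17 and highest at S24-30, S21-23 replicate 1 lies far above the other S21-23 libraries, and the 5p counts of locus 33002 are below 8 at S1-4 and above 61 at S24-30.

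The neighbour Dpu-Mir-87-o2, whose counts were whole in every library, was also highest at S24-30. Its 3p arm had 353, 580, 491 and 472 normalised counts at S24-30, 201, 51.4, 63.4 and 60.9 at S21-23, and 27.6, 26.5, 34.0 and 28 at S17. The mean at S24-30 was 16.3 times that at S17. Replicate 1 again stood above the other S21-23 libraries. Its 5p share, in sequence over the time-points, was 10.8, 3.21, 20.2, 34.5, 37.1, 18.8 and 10.5%. In limma's F-test this change had an adjusted p of 0.0554 over S1-4 to S14 and of 0.0112 with S17 added.

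The microRNAs most like the miR-87-3p sum and each arm of miR-190 were found by Spearman's rho of normalised counts over the 28 libraries, among 228 expressed microRNAs. Libraries of a time-point share their stage, so the points are not independent. miR-190-5p was most like miR-276-3p (0.95), iab-4-5p (0.90) and miR-315-5p (0.89). At S1-4 miR-276-3p and iab-4-5p were higher in replicates 1 and 2, as miR-190-5p was, and miR-315-5p was too. miR-276-3p had 869.7 and 532.5 normalised counts in S1-4 replicates 1 and 2 and 77.0 and 146.8 in replicates 3 and 4. iab-4-5p, from the Hox gene cluster in arthropods, had 8.4 and 10.6 in replicates 1 and 2 and 0.66 and 0 in replicates 3 and 4.

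The miR-87-3p sum was most like miR-2765-5p (0.87), miR-316-3p (0.86) and miR-153-3p (0.86). Its rho with miR-190-5p was 0.51. miR-190-3p was most like Dpu-Mir-10-P2-5p (0.75), an unnamed 3p sequence of locus 32386 (0.71) and Dpu-Mir-29-P1d-3p (0.71), and its rho with miR-190-5p was -0.49.

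miR-87 acts in neurons of flies, so microRNAs known from the nervous system of other animals, miR-7, miR-9, miR-124, miR-137 and miR-219 with their family members, were counted beside it. Of 18 listed sequences 13 were expressed. In S8-11 over S6, where 15.4% of all microRNAs were called, 1 of 13 was called higher, miR-9-3p of locus 36129 (log2 fold change 4.70, adjusted p = 7.3e-07, edgeR), and 0 lower. In S24-30 over S21-23, where 9.4% of all were called, 1 of 13 was called higher, miR-7-5p (log2 fold change 1.94, adjusted p = 9.65e-06, edgeR), and 1 lower, the same miR-9-3p (-2.34, adjusted p = 0.000686, edgeR). In the other 4 steps 0 of 13 were called in either direction. Of all microRNAs, 1.28% were called in S6 over S1-4 and 6.84% in S14 over S8-11. The shares were 0.855% in S17 over S14 and 8.12% in S21-23 over S17. With shares this low, 0 of 13 is not read as a result about the listed sequences. The median change of the listed sequences was 0.57 in S21-23 over S17 and -0.21 in S24-30 over S21-23, where the median of all 234 was 0.00 in both.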

How the data were processed

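The deposited small RNA values are expected counts per mature microRNA, not normalised. Per the study's methods and the submitters' processing notes, the authors used cutadapt (version 1.18) to clip adaptors, discarded tRNA and rRNA reads, aligned the remaining reads to the mature microRNAs they had predicted (Bowtie version 1.1.1, 1 mismatch allowed, every match kept), and estimated counts with Salmon (version 0.14.1). Reads common to near-identical sequences were therefore divided. The 14 mRNA libraries were not used here.

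Expected counts were rounded and tested with edgeR (version 4.0.16, quasi-likelihood test, TMM, 28 libraries and 7 time-points in 1 model, no replicate block) over the 234 microRNAs with a mean of at least 10 normalised counts at a time-point. Arm ratios were tested with limma (version 3.58.1), with 0.5 added to both arms. DESeq2 (version 1.42.0) gave the size factors and an alternative test. In R (version 4.3.3), both fits were tested on simulated data first. Other scalings, filters, pseudocounts, a block and leaving out libraries were tried. Named were all members, the 3 microRNAs most like the miR-87-3p sum and each arm of miR-190 by rank correlation, the precursors on the same contigs and a list of nervous-system microRNAs. Members and lists were chosen with earlier results of these data known. Mature sequences were not analysed here. The chi-squared statistic over its degrees of freedom was 6.21 or more in all 42 replicate pairs, so no library was taken as a repeat of another.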

Additional observations from a re-analysis of the deposited data

Results flagged for a closer look

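Of 84 sets of 4 libraries checked (a member, sum or arm ratio at a time-point), 5 held a library whose gap to the nearest of the other 3 exceeded Dixon's 95% critical value, and chance gives about 1 in 20. In S21-23 replicate 1, miR-87-3p had 550.1 normalised counts at locus 33002 (80.7 to 122.7 in the other libraries), 374.3 at locus 32998 (69.2 to 78.8) and 924.4 as the sum of both (155 to 193). The same library had 79.98 normalised counts of miR-87-5p at locus 33002 (16.0 to 23.1 in the others). These 4 come from 1 library. The miR-87-3p values among them share reads, while the miR-87-5p counts were whole. In S1-4 replicate 1, miR-87-5p of locus 33002 had 7.217 normalised counts (1.99 to 2.80 in the others), from 6 reads.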

How the results depend on the processing

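In the tested steps 0 members were called under any alternative run. The main fit called 1.28% of all microRNAs in S6 over S1-4, 15.4% in S8-11 over S6 and 6.84% in S14 over S8-11. Beside such shares, 0 calls among so few members say little about them. Counts over all microRNAs in other runs are given below. Arm usage of both miR-87 loci over S1-4 to S17 passed under each, but that fit is not independent of the choice of miR-87. Signs of values near 0 changed. For S6 over S1-4 the log2 fold change of the miR-87-3p sum (0.04) was -0.0427 with DESeq2 size factors, -0.311 with total counts, -0.0432 in DESeq2, -0.0302 with no filter, -0.261 with the 2 time-points alone and -0.0800 without the 5 libraries that stood apart, a setting chosen after seeing the data. In the same step miR-87-3p of locus 33002 had -0.180 with total counts, -0.0857 with no filter, -0.0041 with the 2 time-points alone and -0.0305 without the 5 libraries. Without these 5, miR-87-3p of locus 32998 had 0.249, miR-87-5p of locus 32998 0.0966 and miR-190-3p -0.342. The miR-87-5p sum had -0.116 with total counts and -0.0870 with the 2 time-points alone. miR-190-5p had -0.0042 with DESeq2 size factors, -0.192 with total counts, -0.0285 in DESeq2, -0.126 with no filter and -0.0242 with the 2 time-points alone. miR-190-3p had -0.0147 with total counts, -0.0082 with no filter and -0.0353 with the replicate block.

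For S8-11 over S6, total counts gave 0.755 for the miR-87-3p sum, 0.672 for locus 33002 and 0.899 for locus 32998. Without the 5 libraries miR-87-5p had -0.194 at locus 33002, -0.0867 at locus 32998 and -0.224 as a sum. The cause was not tested in any of these.

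Leaving out 1 library at a time gave -0.148 to 0.113 for the miR-87-3p sum in S6 over S1-4, -0.958 to -0.756 in S8-11 over S6 and -0.629 to -0.325 in S14 over S8-11. In S6 over S1-4 it gave -0.102 to 0.186 for miR-87-3p of locus 33002, -0.329 to 0.0093 for locus 32998, -0.276 to 1.85 for miR-87-5p of locus 33002, -0.516 to 0.492 for the miR-87-5p sum, -0.406 to 0.549 for miR-190-5p and -0.145 to 0.456 for miR-190-3p. For S24-30 over S17 it gave 4.04 to 4.31 for the miR-87-3p sum and 5.38 to 5.67 for miR-190-5p. The arm ratio of miR-190 was -2.64 to -1.80 at S8-11 and 5.87 to 6.34 at S24-30. The adjusted p of arm usage over S1-4 to S17 (limma) was 0.000324 to 0.00148 at locus 32998 and 6.27e-06 to 0.000679 at locus 33002. These ranges belong to the fit with S17, which is not independent of the choice of miR-87.

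Over all microRNAs, 3 were called in S6 over S1-4, but 8 in DESeq2 and 0 with the 2 time-points alone, with the replicate block or without the 5 libraries. In S8-11 over S6, 36 were called, 69 with total counts and 23 with the 2 time-points alone. Leaving out 1 library gave 0 to 5 and 28 to 40 calls in these steps, and 10 to 20 in S14 over S8-11, where all libraries gave 16. The main fit did not pair libraries by replicate number: 21 of 84 same-number pairs deviated together with a correlation over 0.1, and 10 of 28 libraries matched best with their own number. Neither count was tested against chance, so they do not settle whether the numbers pair libraries. With the replicate block 0 members were called.

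The limits are few reads of miR-190 before S21-23 (13 in 1 S6 library), 3p reads of miR-87 that cannot be given to 1 locus, and S21-23 replicate 1.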
